A study of Mus musculus with 3 samples.

Results

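The platelet-derived growth factor (PDGF) system was followed through single-cell RNA sequencing of brainstem with and without a diffuse midline glioma graft. The 6 genes are the receptors Pdgfra and Pdgfrb and the ligands Pdgfa, Pdgfb, Pdgfc and Pdgfd, chosen by symbol among the 32285 features that each library lists. Both tumour libraries (tumour 1 and tumour 2) come from B6(Cg)-Tyrc-2J/J mice that received 100000 cells of the murine diffuse midline glioma line DIPG4423 by intracranial injection at 6 weeks of age. That tissue was taken 3 weeks later, and the animals were untreated. The third library (normal) is brainstem without tumour from the same mouse model, also untreated, of an age the labels do not give. What drives DIPG4423 is not given in the labels, so a receptor or ligand transgene with another 3' end would not be counted here. The line is 1 graft source for both tumour libraries, and the normal group has 1 library, so no spread between normal animals was measured.

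PDGF ligands are secreted dimers that bind receptor tyrosine kinases on neighbouring cells. The alpha receptor binds PDGF-A, PDGF-B and PDGF-C chains, and the beta receptor binds mainly PDGF-B and PDGF-D. In the brain the alpha receptor marks oligodendrocyte progenitors, where PDGF-A is a mitogen, and the beta receptor marks pericytes, which endothelial PDGF-B recruits to vessels. PDGF-C and PDGF-D are secreted as latent forms that proteases such as tissue plasminogen activator and matriptase cut. Activation of the alpha receptor is a recurrent feature of diffuse midline glioma.

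Levels are given as CPM, the UMIs of the gene scaled to a common total of all UMIs in the summed cells (counts per 1e6), with exact 95% Poisson intervals where a value rests on few counts. A UMI marks 1 captured RNA molecule. Intervals cover counting error only. Values given in threes are in the order tumour 1, tumour 2, normal, and pairs set against a further value are both tumour libraries against normal. Cells were grouped by marker genes that exclude the 6 members, and names such as microglia-like rest on those rebuilt markers. Deposited barcodes numbered 12118, 10728 and 4354 in tumour 1, tumour 2 and normal, with 151906460, 157114723 and 15035292 UMIs. Filters left 10550, 9407 and 3083 cells. Glial progenitor-like cells numbered 4382 in tumour 1, 2097 in tumour 2 and 1 in normal. Pairs of libraries shared 13 to 37 barcodes. Normal microglia-like cells mostly formed a cluster of their own (653 of 735), and mural-like cells were named only in the tumour libraries (33 and 102 cells).

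Start-site sequences of Pdgfra and Pdgfa are shown because these were the only members that rose in the whole tissue. Each covers 250 bases before to 50 bases after a RefSeq start (GRCm38.p6), read 5' to 3' on the gene's strand. Capitals mark letters ACAATG, a SOX-type motif, or GGGCGG, a GC box, on either strand (CCGCCC is the GC box on the other strand). The E-box CAGCTG and the TATA motif TATAAA were also searched and had 0 matches in the windows shown. The Pdgfra window at chr5:75152001-75152300 (plus strand) held 0 matches, and the Pdgfa windows at chr5:138994232-138994531 and chr5:138994895-138995194 (minus strand) held 1 SOX-type motif with 1 GC box, and 2 GC boxes. Of 32851 promoter windows of this length, 12.6% held the SOX-type motif, 35.7% the GC box, 16.3% the E-box and 13.6% the TATA motif.
Pdgfra start: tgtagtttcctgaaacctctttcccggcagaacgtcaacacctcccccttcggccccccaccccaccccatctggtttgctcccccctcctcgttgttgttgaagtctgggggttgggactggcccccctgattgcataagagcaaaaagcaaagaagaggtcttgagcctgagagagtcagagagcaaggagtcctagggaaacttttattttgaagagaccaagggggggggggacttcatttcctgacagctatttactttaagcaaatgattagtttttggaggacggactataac
Pdgfa start 1: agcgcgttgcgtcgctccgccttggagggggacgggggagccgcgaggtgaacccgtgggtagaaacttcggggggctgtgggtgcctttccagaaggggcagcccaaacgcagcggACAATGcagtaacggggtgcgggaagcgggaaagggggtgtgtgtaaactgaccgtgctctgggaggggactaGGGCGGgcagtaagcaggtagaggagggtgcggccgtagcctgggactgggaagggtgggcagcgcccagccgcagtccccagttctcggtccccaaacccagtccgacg
Pdgfa start 2: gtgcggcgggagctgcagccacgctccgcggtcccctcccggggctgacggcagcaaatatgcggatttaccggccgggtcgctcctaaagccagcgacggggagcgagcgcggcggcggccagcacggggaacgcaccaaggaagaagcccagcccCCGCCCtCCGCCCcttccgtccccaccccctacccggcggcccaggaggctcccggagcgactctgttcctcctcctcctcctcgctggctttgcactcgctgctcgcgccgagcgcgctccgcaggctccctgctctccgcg

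In the whole tissue the alpha receptor and one of its ligands rose in tumour-bearing brainstem, and the beta receptor and the other ligands did not pass the test. Pdgfra (chromosome 5, 75152292 to 75198215, plus strand, GRCm38) measured 858 and 493 CPM against 7.05. Pdgfa (chromosome 5, 138976014 to 138997370, minus strand) measured 78.6 and 65.1 CPM against 24.2. Both tumour libraries lay above normal for both genes, an order that carries little weight alone with 1 normal library. In edgeR's quasi-likelihood test with Benjamini-Hochberg adjustment over 20449 genes, Pdgfra changed by 7.12 on the log2 scale (SE 0.595, adjusted p = 0.00745) and Pdgfa by 2.12 (SE 0.303, adjusted p = 0.0146). Thus 2 of 6 members rose, beside 13.1% of all tested genes that rose and 8.36% that fell. Each tumour-against-normal test has 1 residual degree of freedom, from the tumour pair, beside a spread pooled over genes. Nothing beyond the titles says how the samples relate.

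Pdgfrb (chromosome 18, 61045150 to 61085061, plus strand) measured 10.5, 19.9 and 20.1 CPM. Pdgfb (chromosome 15, 79995874 to 80014977, minus strand) measured 30.9, 67.2 and 70.6 CPM. For both, tumour 2 was near normal and tumour 1 was lowest. Their log2 changes of 0.17 (adjusted p = 0.83) and 0.06 (adjusted p = 0.951) did not pass in edgeR and turned to -0.40 and -0.52 with scaling by library size alone. Pdgfc (chromosome 3, 81036416 to 81214040) stood at 5.38 and 3.86 against 2.08 CPM and Pdgfd (chromosome 9, 6168584 to 6378850) at 2.50 and 3.10 against 7.23. By edgeR neither passed, with log2 changes of 1.70 (adjusted p = 0.099) and -0.81 (adjusted p = 0.319), whereas DESeq2 called Pdgfc (adjusted p = 0.0407). In such sums more cells of a type and more RNA per cell cannot be told apart. With glial progenitor-like cells and a pair of low-UMI clusters left out, after the values had been seen, Pdgfrb changed by 1.45 (adjusted p = 0.0152) and Pdgfa by 1.20 (adjusted p = 0.067), while Pdgfra stayed called at 3.49. Antisense or overlapping genes are counted at every member except Pdgfrb, and the strand setting of the counting is not given in the sources used here.

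**Figure D1:**
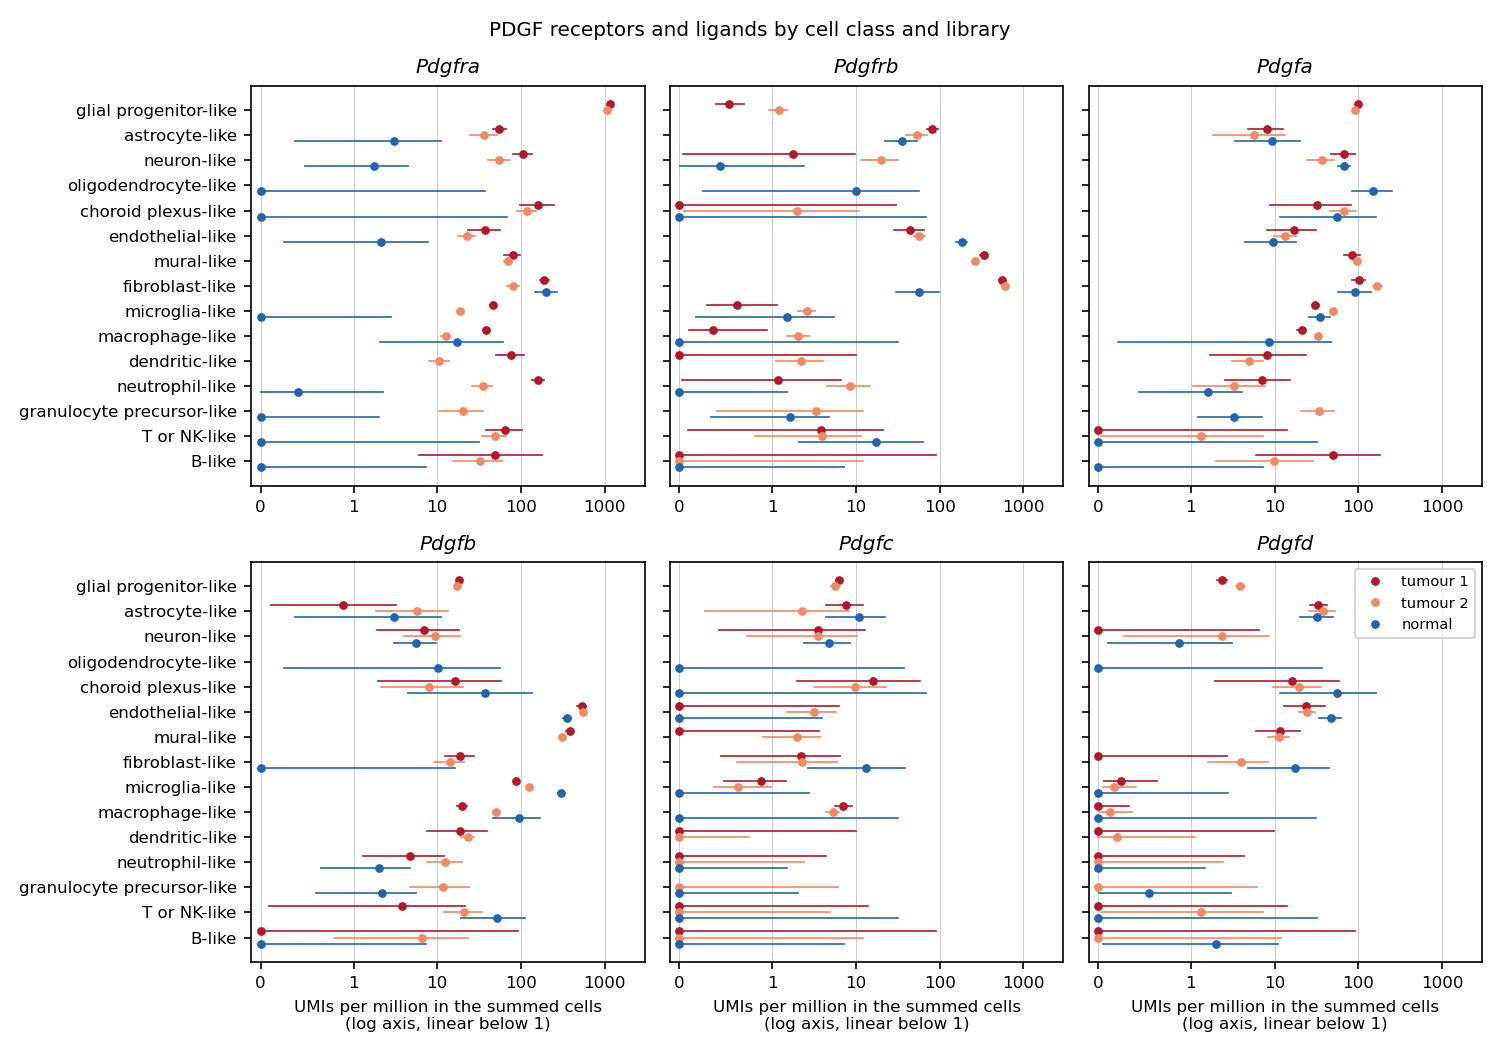
Level of each PDGF receptor and ligand (x axis, CPM of the summed cells, log axis that is linear below 1) by cell class (y axis) in tumour 1, tumour 2 and normal, for classes with at least 20 cells in a library; lines are exact 95% Poisson intervals. Pdgfra reached 1171 and 1055 in glial progenitor-like cells, Pdgfrb 554 and 598 in tumour fibroblast-like cells, and Pdgfb 529, 557 and 358 in endothelial-like cells.

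Pdgfra was carried by glial progenitor-like cells, a class named from 11 markers such as Olig1, Sox10 and C1ql1. Grafted cells and host progenitors were not told apart in it, and the normal library had 1 such cell. Pdgfra reached 1171 CPM in tumour 1 and 1055 in tumour 2, and these cells held 96.8% and 96.5% of each library's Pdgfra UMIs while making up 41.5% and 22.3% of its cells. After each cell was thinned to 1000 UMIs, 63.4% (exact 95% interval 61.9 to 64.8%) and 60.7% (58.6 to 62.8%) of them had a Pdgfra UMI. Before thinning the shares were 98.9% and 96.9%. Lymphocyte-like cells, which should lack the gene, gave 3.26%, 1.59% and 0% in tumour 1, tumour 2 and normal after thinning. Their median depths were 3229.5, 3792.5 and 1806 UMIs, beside 15847 and 21963 in the progenitor-like cells. The single progenitor-like cell of normal held 21 of that library's 78 Pdgfra UMIs, and fibroblast-like cells held 46.

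Among progenitor-like clusters Pdgfra differed more than its counting intervals. In cluster 6, led by the oligodendrocyte progenitor genes Pou3f1, Lhfpl3 and C1ql1, it stood at 1301 and 1104 CPM. In cluster 13, led by the mitotic genes Cenpf and Aspm, it stood at 1158 and 1092, and in cluster 4, led by Prss35 and the hypoxia gene Vegfa, at 1021 and 1082. In cluster 5, led by Serpina3n and the matrix genes Matn2 and Col6a1, it was lowest of the 4 in both libraries, at 700 (interval 677 to 723) and 426 (405 to 449). The other 3 ranked in the same order in both libraries, 6 above 13 above 4, over a narrower range in tumour 2. Clusters were formed from these cells' own genes, so no test was made between them.

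Pdgfa, the alpha receptor's ligand, was detected in the same progenitor-like class at 98.1 and 91.9 CPM. Cluster 5 had 87.0 CPM in tumour 1 and 178 (164 to 192) in tumour 2, whereas clusters 6, 13 and 4 had 103 and 92.3, 99.0 and 93.9, and 89.6 and 74.7. So the cluster with least Pdgfra had the most Pdgfa in tumour 2 and the least in tumour 1. At 1000 UMIs per cell, 9.45% and 8.45% of progenitor-like cells had a Pdgfa UMI, beside 1.09% and 0.397% of lymphocyte-like cells. UMIs of both receptor and ligand occurred in 6.34% of progenitor-like cells of tumour 1 and 4.78% of tumour 2. The product of the separate shares would be 5.99% and 5.13%, above the measured share in one library and below it in the other.

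**Figure D2:**
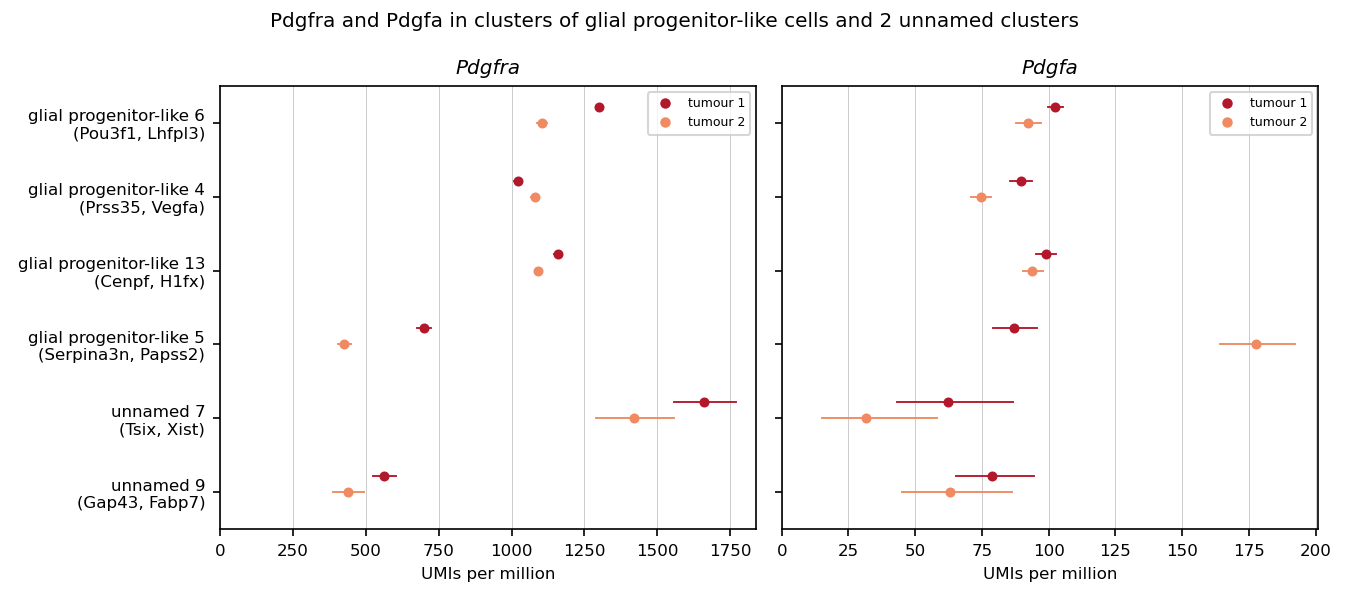
Pdgfra and Pdgfa levels (x axes, CPM, linear) in the 4 clusters of glial progenitor-like cells and 2 unnamed low-UMI clusters (y axis, with leading genes) of tumour 1 and tumour 2; lines are exact 95% Poisson intervals. Pdgfra in cluster 5 was 700 and 426, below the 1021 to 1301 of the other named clusters, and Pdgfa there was 87.0 and 178.

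Fibroblast-like cells were the class with most Pdgfra UMIs in normal. The gene marks perivascular and meningeal fibroblasts, and these cells had 191 CPM in tumour 1, 80.1 in tumour 2 and 202 in normal (46 UMIs, interval 147 to 269). The log2 change of -0.54 did not pass (adjusted p = 0.578, edgeR). Normal fibroblast-like cells had 2.88 Pdgfra UMIs for each UMI of the 11 glial progenitor markers, whereas the ratio in progenitor-like cells was 0.208 and 0.198. Tumour fibroblast-like cells had ratios of 0.184 and 0.153, near the progenitor-like value.

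In other classes Pdgfra was higher in the tumour libraries and low or absent in normal. Microglia-like cells had 46.0 and 19.0 CPM against 0 UMIs (at least 14.3-fold, against a floor of 3 counts, or 2.27 CPM; adjusted p = 0.0088). Neutrophil-like cells had 160 and 34.9 against 0.403 CPM on 1 UMI (log2 change 7.10, adjusted p = 0.0102). Neuron-like cells had 105 and 55.0 against 1.74 on 4 UMIs (5.47, adjusted p = 1.21e-05), and endothelial-like cells 37.1 and 22.5 against 2.13 on 2 UMIs (3.86, adjusted p = 6.36e-06). Astrocyte-like cells had 55.1 and 36.5 against 3.08 on 2 UMIs (3.87, adjusted p = 8.03e-07), and T or NK-like cells 64.8 and 48.7 against 0 (at least 2.19-fold, adjusted p = 0.0255). With so few normal UMIs the sizes of these changes are uncertain. In endothelial-like, astrocyte-like and T or NK-like cells the p-values rest on a spread pooled over genes, with infinite prior degrees of freedom. In tumour 2 the T or NK-like level was 26.9 CPM with a stricter cell filter, 27.7 with none and 163 with doublets kept, and the neutrophil-like level was 10.0 with the stricter filter. These 6 classes passed in edgeR, where 11.5%, 6.2%, 2.49%, 18.3%, 4.14% and 1.92% of all tested genes rose in the order given. Genes that fell made up 5.73%, 7.18%, 0.526%, 13%, 3.1% and 1.63%, and both directions 17.2%, 13.4%, 3.02%, 31.3%, 7.24% and 3.55%. Macrophage-like cells did not pass (38.5 and 12.6 against 17.1 CPM on 2 UMIs, adjusted p = 0.741), in a class where 1.1% rose, 1.11% fell and 2.21% did either. Over all members, 10 of 31 tests in single classes passed, and 6 of these 10 were the Pdgfra calls above. The share of all genes called ran from 0.334% in choroid plexus-like to 31.3% in endothelial-like cells.

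RNA released from broken cells can enter any droplet, and progenitor markers moved with these values. Per UMI of the 11 markers, microglia-like cells of tumour 1 and tumour 2 had 0.238 and 0.208 Pdgfra UMIs, macrophage-like cells 0.283 and 0.236 and neutrophil-like cells 0.274 and 0.167. Neuron-like ratios were 0.218 and 0.125, and those of T or NK-like cells 0.195 and 0.343. Endothelial-like ratios were 0.188 and 0.0959, the latter below the 0.198 of progenitor-like cells of tumour 2. Summed markers stood at 193 and 91.1 CPM in microglia-like cells against 31.7 in normal, and all 11 had a UMI in both tumour libraries. At 1000 UMIs per cell, 5.73% (4.86 to 6.70%) and 1.89% (1.42 to 2.47%) of microglia-like cells had a Pdgfra UMI. Lymphocyte-like intervals were 0.678 to 9.23% and 0.434 to 4.01%, which cover both values. The part of released RNA in these calls was not tested. Astrocyte-like cells had 2598 CPM of the markers even in normal, so their ratios of 0.0243 and 0.0135 cannot be read in this way.

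Choroid plexus-like cells stood apart from that ratio. They had 161 CPM of Pdgfra in tumour 1 (20 UMIs, interval 98.4 to 249) and 118 in tumour 2 (60 UMIs, 90.2 to 152), with 1.11 and 2.22 Pdgfra UMIs per progenitor marker UMI. At 1000 UMIs per cell, 33.3% (14.6 to 57.0%) and 8.77% (2.91 to 19.3%) of them had a UMI. Normal choroid plexus-like cells had 0 of 53883 UMIs, which allows up to 55.7 CPM. The contrast did not pass (at least 2.51-fold, adjusted p = 0.215, edgeR), in a class of 24, 67 and 29 cells where 0% of genes rose and 0.334% fell or did either. Fibroblast markers in these cells summed to 16.1, 31.5 and 37.1 CPM, on 2, 16 and 2 UMIs. Of the 7 markers 1, 4 and 2 were detected, with Lum, Slc6a13 and Dpt at 0 in all 3 libraries and Dcn, Col1a1 and Col3a1 also at 0 in tumour 1. Their part was not tested. Without a cell filter the contrast passed.

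**Figure D3:**
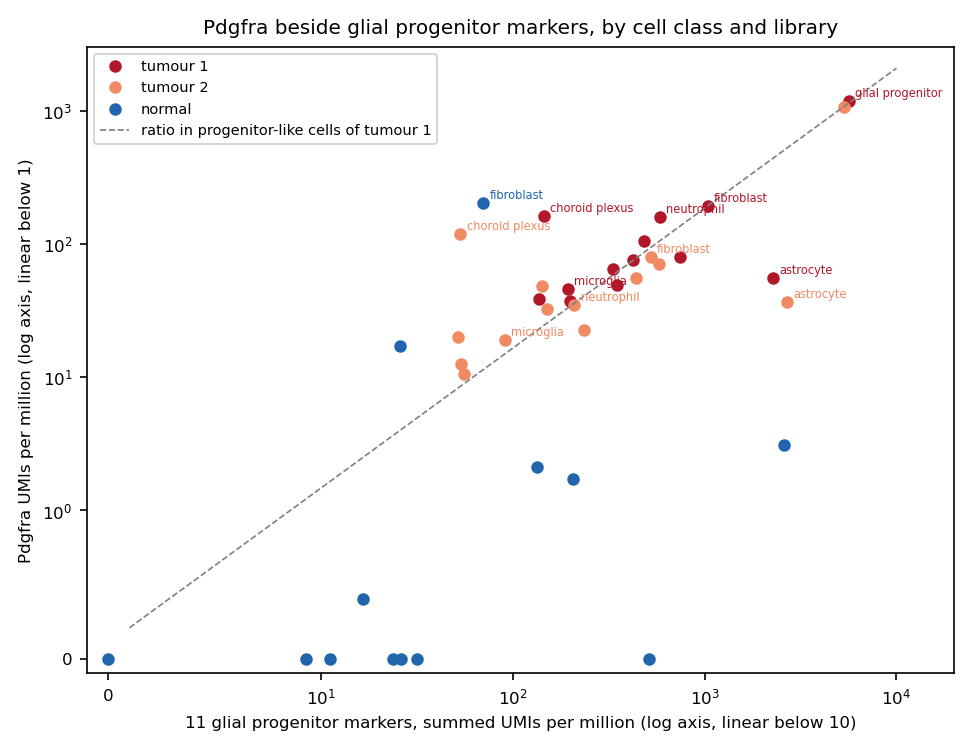
Pdgfra level (y axis, CPM, log axis that is linear below 1) against the summed level of 11 glial progenitor markers (x axis, log axis that is linear below 10), each point a cell class of 1 library; the dashed line is the ratio of 0.208 in progenitor-like cells of tumour 1. Most tumour classes lie near the line, whereas choroid plexus-like cells and normal fibroblast-like cells lie above it and astrocyte-like cells below it.

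In the tumour libraries Pdgfrb was carried by fibroblast-like cells (51.4% and 35.9% of its UMIs) and mural-like cells (23.3% and 41.2%). In normal, endothelial-like cells held 77.1% (172 of 223 UMIs) and fibroblast-like cells 5.83%, and no mural-like class was named. Its change went in opposite directions in fibroblast-like and endothelial-like cells (difference 5.06 on the log2 scale, adjusted p = 2.81e-31, edgeR, 10.3% of genes called). That fit leaves 1 residual degree of freedom, so its p-value rests on a spread pooled over genes. Fibroblast-like cells had 554 CPM in tumour 1 and 598 in tumour 2 against 56.9 in normal (13 UMIs, interval 30.3 to 97.4). The tumour libraries lay close together and far above normal, and the gene rose (log2 change 3.38, SE 0.299, adjusted p = 0.0291, edgeR), 1 of 4 members tested in the class, where 4.12% of all genes rose, 1.92% fell and 6.04% did either. In sums thinned to equal depth the change was 3.09 and did not pass (adjusted p = 0.0905). Mural markers in the class summed to 1474, 2353 and 333 CPM, with 9, 10 and 6 of 10 detected, and their part was not tested. The 49, 78 and 46 cells of the class fell into different clusters.

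Cluster v9, led by Col6a3 and the basement membrane collagen Col4a1, held 29 and 46 cells of tumour 1 and tumour 2 and had 673 and 728 CPM of Pdgfrb. Its Pdgfra was 49.9 and 15.4 CPM, and its mural markers summed to 1880 and 2948 CPM beside 4277 and 6072 for fibroblast markers. Cluster v1, led by the meningeal transporter gene Slc47a1 and by Ccn3, held 24 cells of tumour 2 and 21 of normal. There Pdgfrb was 13.2 CPM in tumour 2 (3 UMIs, interval 2.72 to 38.5) and 60.4 in normal (8 UMIs, 26.1 to 119), and Pdgfra 202 and 166. Within that shared cluster Pdgfrb was therefore not higher in the tumour library. Normal cluster v4 (Slc47a1, Bnc2; 23 cells) had 82.0 CPM of Pdgfrb and 266 of Pdgfra, whereas 10 cells of tumour 1 in cluster v11 (Mmp10, Col6a3) had 382 and 417. The libraries thus differed both in class-wide level and in the clusters they hold. A change within a cell type and a change of clusters cannot be told apart here.

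Endothelial-like cells had 43.8 and 57.4 CPM of Pdgfrb against 183 in normal, and the gene fell (log2 change -1.55, SE 0.274, adjusted p = 2.33e-07, edgeR). With a single clustering pass tumour 2 had 101 CPM against 182. Mural markers moved with it, at 958 and 1327 CPM against 5821, with 10, 10 and 9 of the 10 markers detected and Tagln at 0 in normal. The 2 normal endothelial-like clusters differed in the same way: cluster v13 had 282 CPM of Pdgfrb (239 to 331) and 6824 of mural markers, and cluster v14 had 51.3 (29.9 to 82.1) and 4405. In tumour 2, cluster v10 (Ctla2a, and the tip cell gene Apln) had 31.2 and 342. The part of pericyte RNA in the fall was not tested. In the class 3 of 5 members passed, beside 31.3% of all genes. The fit's prior degrees of freedom were infinite there, as in astrocyte-like, T or NK-like and B-like cells. The p-values of these classes therefore rest on a spread pooled over genes.

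Mural-like cells, the pericytes and smooth muscle cells that PDGF-B attracts, had 335 and 262 CPM of Pdgfrb. Most of their RNA came from cluster v3 (17 and 43 cells), with median UMI counts of 56970 and 101635 and with endothelial markers at 5242 and 4568 CPM beside mural markers at 2797 and 3751. That cluster had both the receptor, at 355 and 275 CPM, and the ligand gene Pdgfb, at 405 and 328. Without it the class had 68.0 and 62.9 CPM of Pdgfrb and 54.4 and 0 of Pdgfb. The share of joined cells in cluster v3 was not tested, and called doublets had been removed.

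Astrocyte-like cells had 81.8, 53.6 and 35.4 CPM of Pdgfrb. Both tumour libraries were above normal, but the change did not pass (log2 change 0.94, adjusted p = 0.0878, edgeR). Defining markers of mural cells summed to 48.0, 58.1 and 47.7 CPM in these cells, on 108, 51 and 31 UMIs. Of the 10 markers 8, 7 and 4 were detected, with Acta2 and Myh11 at 0 in all 3. Kcnj8, Abcc9, Higd1b and Ndufa4l2 were at 0 in normal alone. The part of mural RNA in the Pdgfrb values was not tested. Progenitor-like cells had 0.532 and 1.22 CPM of Pdgfrb.

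**Figure D4:**
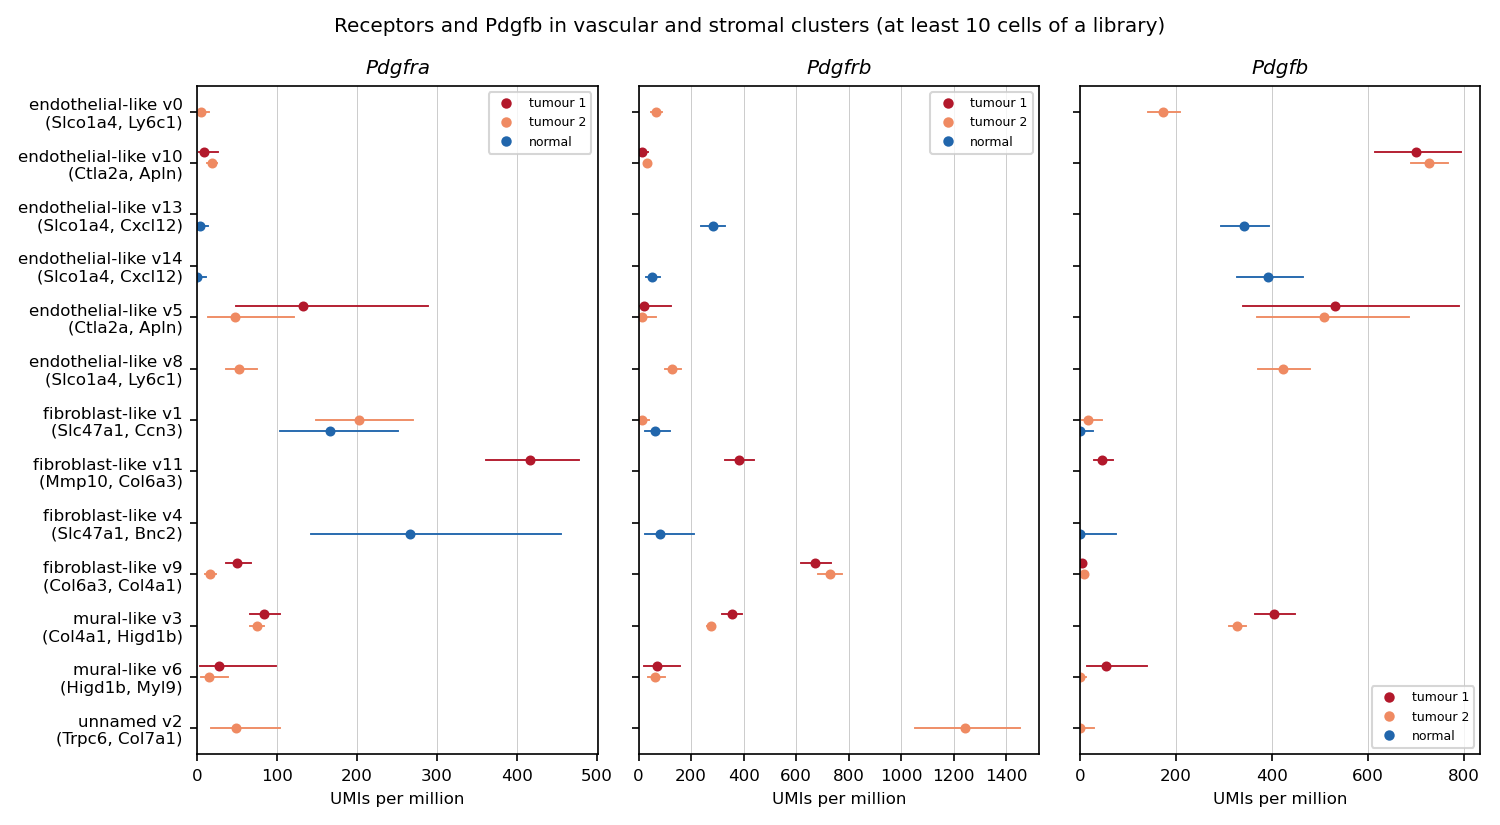
Pdgfra, Pdgfrb and Pdgfb levels (x axes, CPM, linear) in vascular and stromal clusters (y axis, with leading genes) with at least 10 cells of a library; lines are exact 95% Poisson intervals. Pdgfrb was 673 and 728 in tumour fibroblast-like cluster v9 but 60.4 and 82.0 in the normal fibroblast-like clusters, and Pdgfb reached 701 and 729 in endothelial-like cluster v10.

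Pdgfb, the ligand of both receptors, was highest in endothelial-like cells. In normal microglia-like cells came next, and in the tumour libraries mural-like cells (380 and 309 CPM, mostly cluster v3) came before them. Its change differed between endothelial-like and microglia-like cells by 2.01 on the log2 scale (adjusted p = 5.23e-06, edgeR, 8.3% of genes called). This fit too leaves 1 residual degree of freedom and uses a spread pooled over genes. Endothelial-like cells had 529 and 557 CPM against 358 in normal (336 UMIs, interval 320 to 398). Both tumour libraries lay above the normal interval in these clusters, and the gene rose (log2 change 0.85, SE 0.264, adjusted p = 0.00653, edgeR; 18.3% of genes rose). With scaling by library size alone (adjusted p = 0.0569) and with DESeq2 (adjusted p = 0.0969) it did not pass. With a single clustering pass, an alternative added after seeing the data, tumour 2 had 296 CPM, below the 360 of normal, and tumour 1 had too few endothelial-like cells (14) for a value, so the direction in tumour 2 depends on the clustering. Cluster v10, which holds the tip cell gene Apln among its leading genes, had 701 and 729 CPM, and cluster v5, led by the same genes at low UMI counts, 532 and 510. The normal clusters v13 and v14 had 341 and 392, whereas clusters v0 and v8 of tumour 2, both led by the barrier transporter gene Slco1a4, had 172 and 423.

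Microglia-like cells had 86.7 and 123 CPM of Pdgfb against 302 in normal (400 UMIs, interval 273 to 333). At 1000 UMIs per cell, 9.77%, 13.7% and 24.3% of them had a Pdgfb UMI, and before thinning 34.9%, 57.8% and 34.8%. Lymphocyte-like cells gave 0%, 1.98% and 0.893%. The gene fell (log2 change -1.03, SE 0.296, adjusted p = 0.0493, edgeR), while 5.73% of genes fell and 11.5% rose, and the members called in the class were Pdgfb and Pdgfra of 5 tested. The call is near the threshold: DESeq2 gave adjusted p = 0.0575 and relative log expression scaling 0.0512. Against tumour 2 alone the log2 change was -0.73 and against tumour 1 alone -1.41, values with no test.

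Normal was also above both tumour libraries in the 3 clusters with at least 10 cells of each library. Cluster 2, led by the homeostatic microglia genes Tmem119 and P2ry12, had 195, 177 and 354 CPM (26, 792 and 38 cells). Cluster 1, led by Lag3, Gpr84 and Cst7, had 69.2, 120 and 207 CPM, and cluster 8 had 136, 207 and 350. Normal was highest in each, on 25, 12 and 9 UMIs, and its wide interval overlapped that of tumour 1 in cluster 2 and of tumour 2 in clusters 1 and 8. The dividing cluster 10 had 39.0 and 80.2 CPM in the tumour libraries, and the mainly normal cluster 29 had 304. Macrophage-like cells had 19.7, 50.6 and 94.0 CPM, with no call (adjusted p = 0.573).

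**Figure D5:**
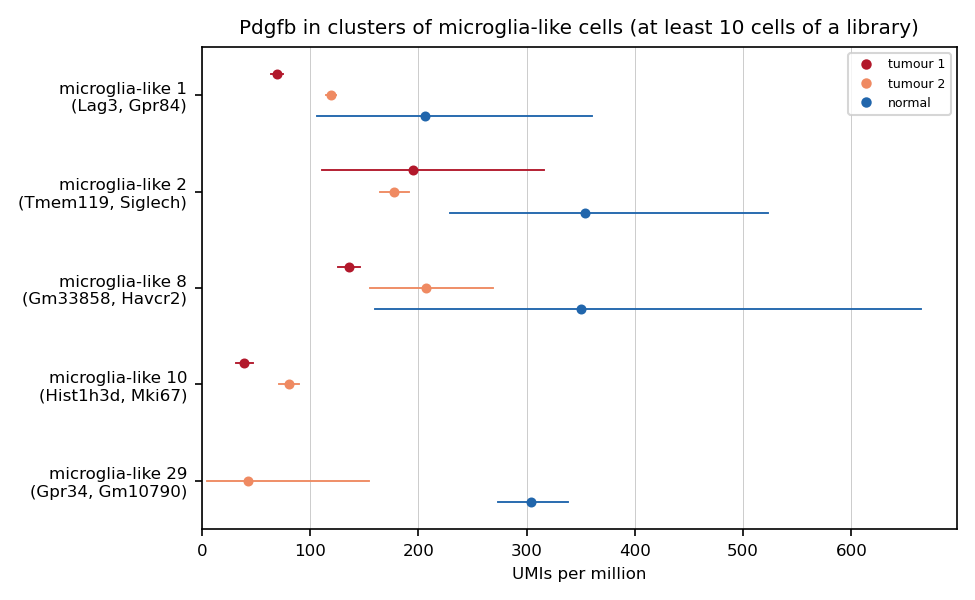
Pdgfb level (x axis, CPM, linear) in clusters of microglia-like cells (y axis, with leading genes) with at least 10 cells of a library; lines are exact 95% Poisson intervals. In clusters 1, 2 and 8, normal stood at 207, 354 and 350, above both tumour libraries, though with wide intervals.

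Progenitor-like cells had 18.0 and 17.5 CPM of Pdgfb, and 1.92% and 2.29% of them had a UMI at 1000 UMIs. Lymphocyte-like cells had 3.30 CPM in tumour 1 (interval 0.0837 to 18.4) and 16.9 in tumour 2 (10.0 to 26.7). The latter interval covers the progenitor-like level of tumour 2. In that library T or NK-like cells held 16 Pdgfb UMIs, and astrocyte-like, neuron-like and neutrophil-like cells 5, 8 and 19. Normal T or NK-like cells held 6, so lymphocyte-like cells are not a sure floor for this gene. The part of released RNA in the progenitor-like level was not tested. Progenitor-like cells held 41.3% and 11.7% of the Pdgfb UMIs of tumour 1 and tumour 2, and microglia-like cells 31.9% and 36.0%. The endothelial-like share in tumour 2 was 18.2%. In normal, microglia-like cells held 51.2% and endothelial-like cells 43.0%.

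Pdgfa outside progenitor-like cells was spread over several classes. Neuron-like cells had 66.6, 36.3 and 67.3 CPM, without a call (log2 change -0.37, adjusted p = 0.788, edgeR), and normal had 41.8 without a cell filter. They held 57.8% of normal Pdgfa UMIs (155 of 268), and progenitor-like cells held 88.4% and 63.6% in the tumour libraries. Normal oligodendrocyte-like cells, the myelinating descendants of the progenitors, had 151 CPM on 15 UMIs (84.8 to 250). Fibroblast-like cells had 101, 169 and 92.0 CPM and microglia-like cells 30.8, 50.3 and 34.8, and neither contrast passed (adjusted p = 0.444 and 0.268). Astrocyte-like cells had 5.70 to 9.23 CPM in the 3 libraries. No tested class showed a called change of Pdgfa, although the whole tissue did.

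Pdgfc and Pdgfd, the ligands that proteases activate, were low. Pdgfc stood at 6.31 and 5.63 CPM in progenitor-like cells, which held 83.2% and 65.6% of its UMIs, and at 7.09 and 5.28 in macrophage-like cells of the tumour libraries. Normal macrophage-like cells had 0 UMIs, which allows up to 25.6 CPM, so a difference was not detectable at this depth. Pdgfd in astrocyte-like cells measured 33.3, 37.6 and 32.3 CPM (log2 change 0.07, SE 0.401, adjusted p = 0.948). Endothelial-like cells had 23.6, 24.7 and 46.8 CPM of Pdgfd, lower in both tumour libraries, without a call (log2 change -0.70, adjusted p = 0.141). In choroid plexus-like cells it stood at 16.1, 19.7 and 55.7 CPM on 2, 10 and 3 UMIs.

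Genes that process or bind the ligands, or act downstream of the receptors, were counted in 4 lists. In the whole tissue, of 56 pathway genes 24 rose and 0 fell, beside 13.1% and 8.36% of all genes, and their median log2 change was 1.11 against 0.14 over all genes. Among 10 transcriptional targets 8 rose, including the cyclin gene Ccnd1 (632 and 635 against 36.7 CPM, log2 change 4.67), the ETS factor gene Etv4 (119 and 85.6 against 5.96, 4.65) and the immediate early gene Egr1 (227 and 125 against 10.6, 4.60). Of 16 brakes 5 rose, led by the feedback inhibitors Spry1 (3.57) and Spry4 (3.39). Adaptors and effectors had 7 of 21 higher, and ligand processing and binding genes 4 of 9, among them Plat and St14, which encode tissue plasminogen activator and matriptase. These genes respond to many receptors besides those of PDGF, and progenitor-like cell numbers differ between the groups.

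In fibroblast-like cells 8 of 54 tested pathway genes rose, beside 4.12% of all genes. Sparc, a matrix protein that binds PDGF, fell (log2 change -1.44), beside 1.92%. The risers were the brakes Spry4 (5.90), Spry1 (4.43), Dusp6 (3.87) and Ptpn1 and the targets Etv4 (3.22), Junb (3.18), Ccnd1 and Egr1. The median of the 54 was 0.85 against 0.18 over all genes. Endothelial-like cells had 13 of 49 higher, with Myc at 7.55 and Dusp5 at 4.23, and 6 lower, with Spry2 at -2.16, beside 18.3% and 13% of all genes. In microglia-like cells 8 of 53 rose, near the 11.5% of all genes, and Etv1 and Pik3ca fell, beside 5.73%. Astrocyte-like cells had 6 of 45 higher and 2 lower, beside 4.14% and 3.1% of all genes, and neuron-like cells 2 and 0 of 46, beside 2.49% and 0.526%. Macrophage-like cells had 1 and 1 of 54, beside 1.1% and 1.11%, and neutrophil-like cells 13 and 3 of 48, beside 6.2% and 7.18%. T or NK-like cells had 1 and 1 of 26, beside 1.92% and 1.63%. There Junb rose (2.66) and Egr1 fell (-2.47), against its whole-tissue rise. B-like cells, where no member could be tested, had 5 and 1 of 30, beside 5%, 5.98% and 11% of genes that rose, fell or did either. Ccnd1 also rose in B-like (4.34), neutrophil-like (3.85) and neuron-like cells (3.25), and Etv4 in neutrophil-like (7.61) and microglia-like cells (10.7). Neither was called in macrophage-like or T or NK-like cells, and only 5 of the 10 targets were tested in the latter. In choroid plexus-like cells 0 of the 10 targets were tested. The part of released RNA in these counts was not tested.

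Kit, a receptor of the same class whose gene lies next to Pdgfra on chromosome 5 (75574916 to 75656722), stood at 84.3 and 79.1 CPM in progenitor-like cells and at 64.4 and 45.4 against 31.1 in the whole tissue (log2 change 1.37, adjusted p = 0.0391, edgeR). The next gene, Kdr, the main VEGF receptor (75932827 to 75978458), stood at 2.52 and 3.51 CPM in progenitor-like cells. On the other side Fip1l1 (74535449 to 74598800), Lnx1 (74592447 to 74702912) and Scfd2 (74204816 to 74531759) rose in the whole tissue by 1.88, 1.72 and 2.44 (adjusted p = 0.023, 0.024 and 0.0135, edgeR), where 13.1% of all genes rose. Values of the further neighbours Gsx2, Srd5a3, Tmem165 and Clock are not given here, so the whole stretch is not described. In progenitor-like cells Fip1l1 had 379 and 357 CPM against 75.8 to 107 in microglia-like cells. Chic2, between them and Pdgfra, had 106 and 104 CPM in progenitor-like cells and 91.0 to 156 in microglia-like cells, and did not pass in the whole tissue (log2 change 0.53, adjusted p = 0.222). Copy number was not measured.

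Across 40 sums of a class within a library, genes were ranked by Pearson's r with each member on log2(CPM + 1), over 16539 genes. Sums of 1 library share depth and released RNA, so r is a description. Closest to Pdgfra were Moxd1 (0.88), Sema3d (0.87) and Rlbp1 (0.85), and closest to Pdgfrb were Ednra (0.90), the endothelin receptor gene, Lama2 (0.88) and Gng11 (0.87). Pdgfb was closest to Enc1 (0.76), Kdr (0.76) and Pea15a (0.75). For Pdgfa the genes were Pkdcc (0.80), Eri3 (0.77) and Spg20 (0.76), for Pdgfc Clec11a (0.79), Hexim2 (0.78) and Kazald1 (0.75), and for Pdgfd Plscr2, Ccdc141 and Ddit4l (each 0.90).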

How the data were processed

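The deposited values are raw UMI counts of each gene in each barcode. Cell Ranger 6.1.2 is named in the file headers, and the build mm10 in the submitters' processing notes. Per the labels' protocols, tissue was ground, depleted of myelin with beads and freed of red cells. The members, gene lists and tests were chosen with earlier results of these data known. Barcodes with at least 500 UMIs, 300 genes and at most 15% mitochondrial UMIs were kept, Scrublet doublets (375, 238 and 46) removed, and cells clustered in scanpy 1.11.5 (2000 variable genes without the members, 30 components, 15 neighbours, Leiden in igraph 0.11.9, resolution 1.0) without integration. Clusters took a name where a list's mean log2 level over the clusters' average reached 1, with 0.05 added to both, and at least 3 markers were detected in 10% of cells. That score, and a second clustering of vascular, stromal, erythroid and oligodendrocyte cells, were set after clusters had been seen.

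Counts were added up within each library, for all cells and for 10 classes with at least 20 cells in each library, and tested with edgeR 4.0.16 in R 4.3.3 (quasi-likelihood, TMM, filterByExpr, adjusted p under 0.05). The test was tried on simulated counts. Shares have exact Clopper-Pearson 95% intervals. Named genes were the 6 members, the 3 genes most like each, up to 5 called pathway genes per direction and comparison, and related receptors and neighbours. Positions come from GENCODE mouse release M21 (GRCm38; 32158 identifiers matched, 127 did not), and 4 members had RefSeq promoters. Alternatives were other scalings and tools (DESeq2 1.42.0), no low-count filter, leaving out a tumour library, thinning, other cell filters, resolution 2.0 and the members kept for clustering.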

Additional observations from a re-analysis of the deposited data

Results flagged for a closer look

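The tumour-against-normal change of Pdgfb differed between classes. It was higher in endothelial-like than in microglia-like cells by 2.01 on the log2 scale (SE 0.339, adjusted p = 5.23e-06, edgeR with the library as a block), with the rise and the fall seen in 2 of 2 tumour libraries. With a single clustering pass the endothelial-like level of tumour 2 was 296 CPM against 360 in normal, so the rise was not seen there. In that contrast 8.3% of 13212 genes were called. The change of Pdgfrb was higher in fibroblast-like than in endothelial-like cells by 5.06 (SE 0.413, adjusted p = 2.81e-31), and that of Pdgfra was lower by 4.55 (log2 difference -4.55, adjusted p = 1.23e-08), where 10.3% of 11965 genes were called. These pairs of classes were picked after the values had been seen. Each fit leaves 1 residual degree of freedom and has 1 normal library, so its p-values rest on a spread pooled over genes. For Pdgfra, normal endothelial-like cells held 2 UMIs. Cluster makeup and mural markers move with the second contrast, and progenitor markers with the third, and their part was not tested.

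Unnamed clusters entered the whole-tissue sums but no comparison by class. Those given here were picked because a member lay above every normal class of at least 20 cells. The best-scoring marker list was glial progenitor for cluster 7 (score 1.10) and mural for cluster v2 (score 1.94). Both stayed unnamed for low UMI counts without leading markers of the list. Cluster 7, a low-UMI cluster led by the X-linked noncoding genes Tsix and Xist, had 1661 CPM of Pdgfra in tumour 1 (317 cells) and 1419 in tumour 2 (139 cells). Cluster 9, led by Gap43 and Fabp7 at low UMI counts, had 564 and 439 CPM (637 and 280 cells). Cluster v2, led by the pericyte channel gene Trpc6, Col7a1 and Stc1, had 1242 CPM of Pdgfrb in tumour 2 (38 cells, interval 1055 to 1453), with 0 UMIs of Pdgfb.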

How the results depend on the processing

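No paired analysis was possible because the groups compared share fewer than 2 replicate numbers. The whole-library calls of Pdgfra and Pdgfa held with every planned scaling, filter, tool and thinning. Pdgfb, which was not called, turned to -0.52 with library size alone, -0.028 with relative log expression, -0.0078 with the stricter cell filter and -0.13 when thinned, and Pdgfrb to -0.40 with library size alone and -0.058 when thinned. DESeq2 gave Pdgfc 1.73 and called it. Without progenitor-like cells, an alternative added after seeing the data, Pdgfa (1.20) was not called and Pdgfrb (1.45) was. Leaving out a tumour library gave Pdgfra 6.67 to 7.42, Pdgfa 1.97 to 2.19, Pdgfrb -0.45 to 0.53, Pdgfb -0.70 to 0.47, Pdgfc 1.44 to 1.86 and Pdgfd -1.04 to -0.68, the low Pdgfrb, Pdgfb and Pdgfd values without tumour 2; with no residual degree of freedom these have no test. Among the class tests 10 were called, 6 with DESeq2 and 6 with a single clustering pass, an alternative also added later, where no fibroblast-like class was named and tumour 1 had 14 endothelial-like cells, below the minimum. Other settings gave 7 to 13 calls. The cause was not tested. Of 63 levels, 54 to 62 stayed inside their counting intervals under the planned cell filters, resolution and marker settings. Moves of over 1.5 times not given above were Pdgfra in astrocyte-like cells of tumour 2 (63.4 CPM, no cell filter) and endothelial-like cells of tumour 1 (24.0, stricter filter), and Pdgfra (123) and Pdgfb (247) in mural-like cells of tumour 1 with a single clustering pass. TMM scaling left the median gene at 0.14 and library size alone at -0.42. With 2 libraries against 1, small changes cannot be seen.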
